A study of Mus musculus with 9 samples.

Results

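The 10 enzymes described here make NADPH in the cytosol or link that reaction to the sugar phosphates of glycolysis, with the mitochondrial malic enzyme Me2 added. They are *G6pdx*, *Pgls*, *Pgd*, *Rpia*, *Rpe*, *Tkt*, *Taldo1*, *Idh1*, *Me1* and *Me2*. They were taken by gene symbol, without regard to their values, and each symbol stood once among the 46517 genes of the deposited expression table.

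The pentose phosphate pathway branches from glycolysis at glucose 6-phosphate. Its oxidative arm reduces NADP+ to NADPH and ends in ribulose 5-phosphate, and its reversible non-oxidative arm exchanges carbon units between sugar phosphates and leads back to glycolysis. In neutrophils NADPH is the electron donor of the phagocyte oxidase, which makes superoxide, and it also keeps glutathione and thioredoxin reduced. Cytosolic isocitrate dehydrogenase and malic enzyme are further sources of cytosolic NADPH.

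RNA was sequenced from neutrophils of C57BL/6 mice that carried orthotopically transplanted pancreatic ductal adenocarcinoma (OT mice), on day 27 after transplantation of the tumor cells. There were 9 libraries, 3 each from the bone marrow, the blood and the tumor. All 3 compartments came from tumor-bearing mice, and no tumor-free group was analysed here. The study describes the compartments as taken from the same mice, but which libraries belong together is not given, so they were compared as unpaired. Each library held pooled mice, and the cells were sorted as live CD45+ cells that lacked CD3, B220 and NK1.1 and carried Ly6G and Ly6C, with the bone marrow cells labelled Ly6G.hi and the others Ly6G+.

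Values are log2 FPKM, the base-2 logarithm of fragments per kilobase of gene length, scaled to library size, and a difference of 1 is a 2-fold change. Whole reads recovered from these values came to between 4580807 and 7949367 per library. All 10 neutrophil markers had reads in every compartment, but their summed level was 45705 to 47097 reads per 1000000 recovered reads (RPM) in bone marrow, against 35245 to 36033 in blood and 11814 to 13727 in tumor. Markers of immature neutrophils, 9 granule genes such as *Mpo* and *Ltf*, summed to 80628 to 88337 RPM in bone marrow, against 3130 to 3852 in blood and 7122 to 11339 in tumor. The tumor libraries also held 2798 to 5950 RPM of 10 tumor epithelium markers (8.02 to 11.4 in bone marrow, where *Cldn4* had no read, and 21.6 to 148 in blood), 1108 to 1363 of 8 fibroblast markers (4.91 to 9.99 and 1.62 to 6.11) and 553 to 2217 of 8 acinar markers (1.41 to 4.91 and 2.40 to 8.05). In bulk RNA of this kind, fewer cells of a type and less RNA per cell cannot be told apart, and the part of other cells in the tumor values was not tested.

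The enzymes did not all move alike. *G6pdx*, *Pgd* and *Tkt* stood highest in bone marrow, lower in blood and lowest in tumor, although the last step was small for *Tkt*. *Taldo1* peaked in blood and was 7.84-fold lower in tumor. *Pgls*, *Rpia*, *Rpe*, *Idh1* and *Me2* fell between bone marrow and blood and were not called lower in tumor than in blood. *Me1* was read in tumor, with 1 read in all other libraries together.

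**Figure D1:**
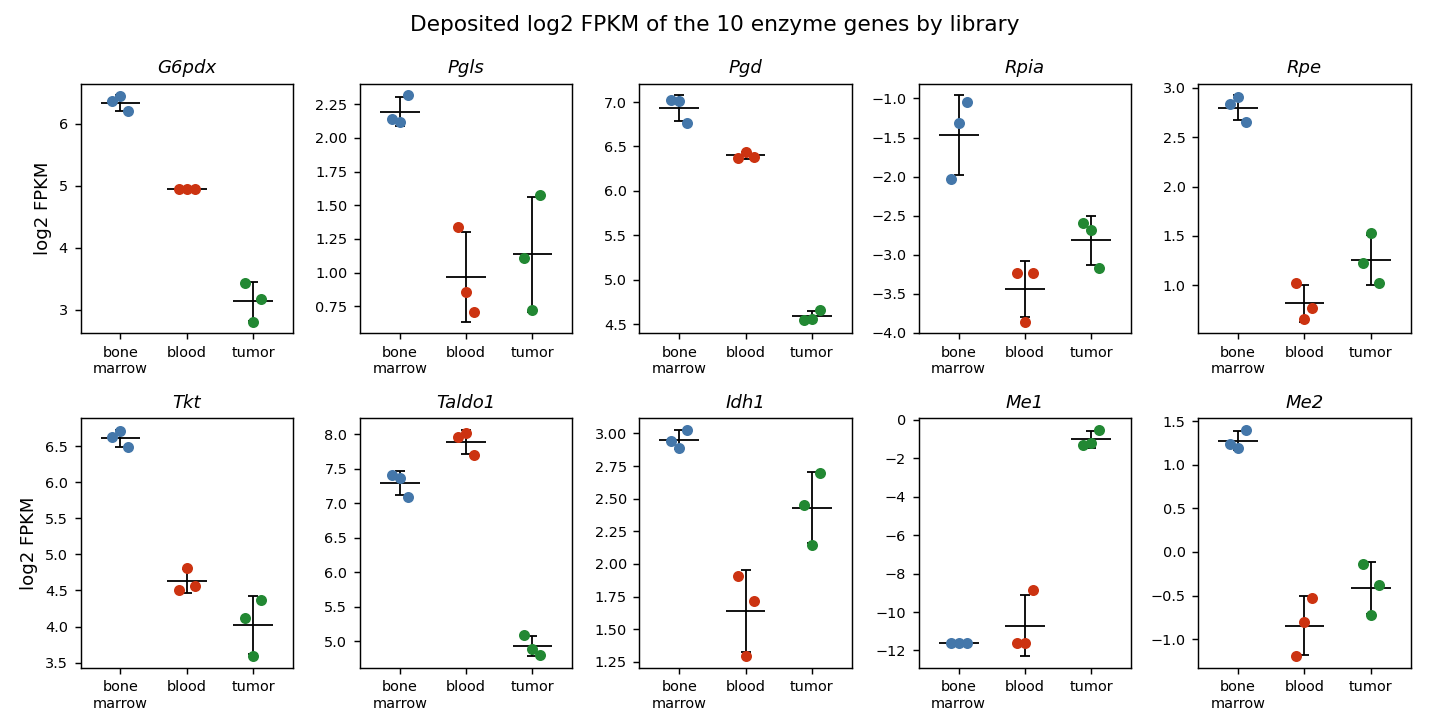
Deposited log2 FPKM (vertical axes, each with its own range) of the 10 enzyme genes in bone marrow, blood and tumor neutrophils, with 1 point per library, a line at the mean of 3 libraries and error bars of 1 SD. *G6pdx* and *Pgd* step down from bone marrow to blood to tumor, *Taldo1* is highest in blood, and *Me1* leaves its floor of -11.63, the value for 0 reads, in the 3 tumor libraries.

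The oxidative arm opens with glucose 6-phosphate dehydrogenase (*G6pdx*, ENSMUSG00000031400.9, GRCm38 chrX:74409483-74429194, minus strand), which makes the first NADPH and sets the flux into the pathway. Its log2 FPKM was 6.37, 6.45 and 6.20 in bone marrow, 4.95, 4.95 and 4.95 in blood, and 3.43, 2.81 and 3.17 in tumor. The 3 compartments did not overlap, and the tumor libraries were the most spread (SD 0.31, against 0.13 in bone marrow, n = 3). It was 2.61-fold lower in blood than in bone marrow (log2 -1.38, SE 0.15, limma adjusted p = 0.000299) and a further 3.53-fold lower in tumor than in blood (log2 -1.82, SE 0.15, limma adjusted p = 3.22e-05). Tumor lay 9.21-fold below bone marrow (log2 -3.20, SE 0.15, limma adjusted p = 3.62e-06), the largest fall of the 10 enzymes in the table. *Ikbkg* overlaps *G6pdx* on the opposite strand, and whether the counting used strand is not given in the sources used here.

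6-phosphogluconate dehydrogenase (*Pgd*, ENSMUSG00000028961.14, chr4:149149991-149166771, minus strand) makes the other NADPH of the arm. Its log2 FPKM was 7.03, 7.01 and 6.76 in bone marrow, 6.37, 6.44 and 6.39 in blood, and 4.55, 4.56 and 4.65 in tumor. The compartments were again apart, but the spacing differed from that of *G6pdx*, with a short step into blood and a long step into tumor. *Pgd* was 1.45-fold lower in blood than in bone marrow (log2 -0.53, SE 0.09, limma adjusted p = 0.00213) and 3.51-fold lower in tumor than in blood (log2 -1.81, SE 0.09, limma adjusted p = 3.88e-06).

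Within a library the log2 difference *Pgd* minus *G6pdx* does not depend on how libraries are scaled, though its level depends on the gene lengths used. It was 0.59 ± 0.06 (SD, n = 3) in bone marrow, against 1.44 ± 0.04 in blood and 1.45 ± 0.32 in tumor. It was 0.85 higher in blood than in bone marrow without overlap (exact two-sided permutation p = 0.1, the smallest that 3 against 3 libraries allow). Between blood and tumor it differed by 0.01 (exact permutation p = 1), with 1.11 to 1.75 in tumor around 1.41 to 1.49 in blood.

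6-phosphogluconolactonase (*Pgls*, ENSMUSG00000031807.9, chr8:71592176-71601092, plus strand) hydrolyses the lactone between the 2 dehydrogenases and was read far less, with 68 to 295 reads per library. Its log2 FPKM was 2.14, 2.12 and 2.32 in bone marrow, 1.34, 0.86 and 0.71 in blood, and 1.11, 0.72 and 1.58 in tumor. Bone marrow stood above both other compartments, which overlapped. It was 2.34-fold lower in blood than in bone marrow (log2 -1.23, SE 0.25, limma adjusted p = 0.00531) and 2.08-fold lower in tumor than in bone marrow (log2 -1.06, SE 0.25, limma adjusted p = 0.00757), the latter not called with plain library totals (log2 -0.61, adjusted p = 0.105). Between tumor and blood the log2 difference was 0.17, with a 95% interval of -0.41 to 0.74 (limma adjusted p = 0.577). *Fam129c* overlaps *Pgls* on the same strand, so reads in the shared stretch are uncertain.

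In the non-oxidative arm, ribulose 5-phosphate is first isomerised to ribose 5-phosphate by *Rpia* or epimerised to xylulose 5-phosphate by *Rpe*. *Rpe* (ENSMUSG00000026005.14, chr1:66700831-66719805, plus strand) had log2 FPKM of 2.83, 2.91 and 2.66 in bone marrow, 1.02, 0.66 and 0.77 in blood, and 1.22, 1.53 and 1.02 in tumor. It was 3.95-fold lower in blood than in bone marrow (log2 -1.98, SE 0.17, limma adjusted p = 9.24e-05) and 2.91-fold lower in tumor than in bone marrow (log2 -1.54, SE 0.17, limma adjusted p = 0.000152). The lowest tumor library met the highest blood library, and the rise from blood to tumor (log2 0.44, SE 0.17, limma adjusted p = 0.0488) was lost in 18 of 23 alternative settings. *Kansl1l* overlaps *Rpe* on the opposite strand.

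*Rpia* (ENSMUSG00000053604.5, chr6:70765720-70792232, minus strand) was sparsely read, with 43, 60 and 85 reads in bone marrow, 11, 10 and 13 in blood, and 27, 31 and 23 in tumor, and lay under the expression filter of the main test. Among genes with at least 5 reads in 1 library it was 3.94-fold lower in blood than in bone marrow (log2 -1.98, SE 0.39, limma adjusted p = 0.00637) and 2.55-fold lower in tumor than in bone marrow (log2 -1.35, SE 0.39, limma adjusted p = 0.0221). The second of these was lost in 6 of 14 alternatives, among them those without bone marrow replicate 2 (adjusted p 0.00925 to 0.0922 over the 14), bone marrow replicate 3 or tumor replicate 3. The log2 difference between tumor and blood was 0.63, with a 95% interval of -0.27 to 1.52 (limma adjusted p = 0.208), and it was called higher on plain library totals (log2 1.07, adjusted p = 0.046).

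Transketolase (*Tkt*, ENSMUSG00000021957.6, chr14:30548359-30574720, plus strand) and transaldolase (*Taldo1*, ENSMUSG00000025503.4, chr7:141392199-141402968, plus strand) then move carbon units between the sugar phosphates and return fructose 6-phosphate and glyceraldehyde 3-phosphate to glycolysis. *Tkt* had log2 FPKM of 6.63, 6.72 and 6.48 in bone marrow, 4.51, 4.81 and 4.57 in blood, and 4.12, 3.58 and 4.37 in tumor. It was 3.95-fold lower in blood than in bone marrow (log2 -1.98, SE 0.19, limma adjusted p = 0.000182) and 6.01-fold lower in tumor than in bone marrow (log2 -2.59, SE 0.19, limma adjusted p = 2.24e-05). The step from blood to tumor was small (log2 -0.61, SE 0.19, limma adjusted p = 0.0257). It lost its call in 7 of 23 settings, among them those without blood replicate 2 and without blood replicate 3, and stood at log2 -0.16 with plain library totals (adjusted p 0.00809 to 0.54 over the 23).

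*Taldo1* took another course. Its log2 FPKM was 7.41, 7.37 and 7.10 in bone marrow, 7.96, 8.03 and 7.70 in blood, and 5.08, 4.89 and 4.80 in tumor. It was the only enzyme of the 8 tested that was higher in blood than in bone marrow, by 1.52-fold (log2 0.60, SE 0.13, limma adjusted p = 0.00765), and every blood library stood above every bone marrow library. In tumor it was 7.84-fold lower than in blood (log2 -2.97, SE 0.13, limma adjusted p = 2.65e-06) and 5.17-fold lower than in bone marrow (log2 -2.37, SE 0.13, limma adjusted p = 6.02e-06). The fall from blood to tumor kept its call in all 23 alternatives, between log2 -3.07 and -2.47.

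The within-library log2 difference *Taldo1* minus *Tkt* therefore moved with the compartment. It was 0.68 ± 0.09 (SD, n = 3) in bone marrow, against 3.27 ± 0.16 in blood and 0.90 ± 0.44 in tumor. Blood was apart from both, by 2.58 from bone marrow and by -2.36 as tumor minus blood (exact two-sided permutation p = 0.1 each, the smallest possible). Tumor and bone marrow overlapped, 0.43 to 1.31 against 0.61 to 0.78 (exact permutation p = 0.5).

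**Figure D2:**
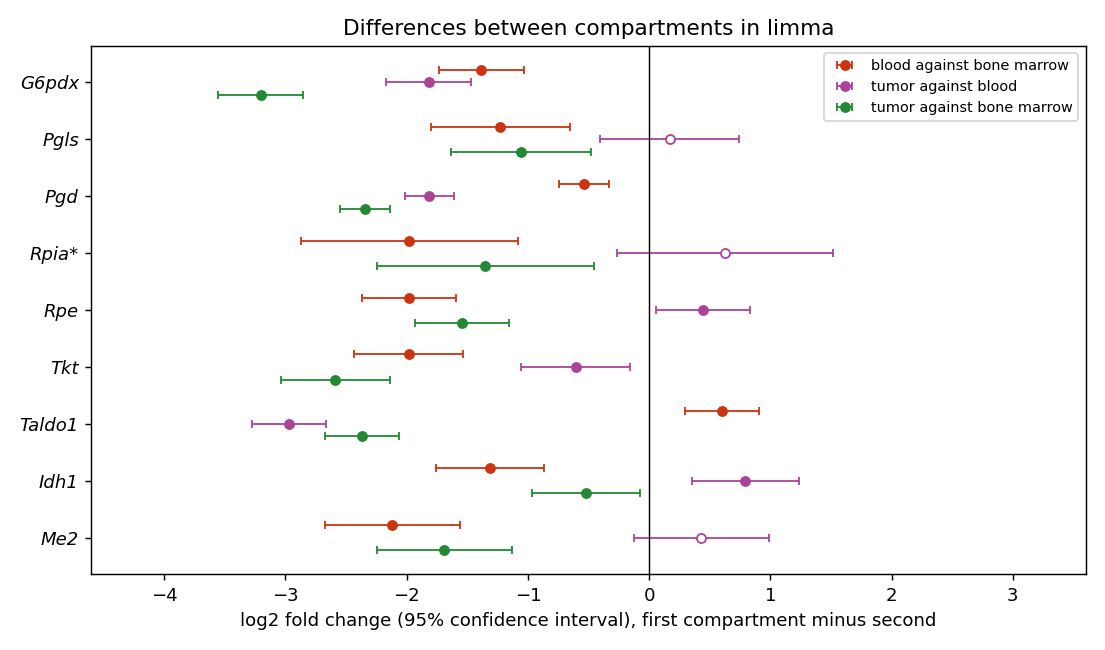
Log2 fold changes (horizontal axis, first compartment minus second) with 95% confidence intervals from limma for 9 of the enzymes, filled where the adjusted p was under 0.05 and open otherwise, with *Me1* left out because it had no reads in bone marrow and *Rpia*, marked with an asterisk, fitted with the filter on reads. In tumor against blood *Taldo1*, *G6pdx* and *Pgd* lie at or below -1.81, *Tkt* lies at -0.61, and *Idh1* and *Rpe* lie above 0. The filled points of *Me2* against bone marrow were in part set by the filter.

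Cytosolic isocitrate dehydrogenase (*Idh1*, ENSMUSG00000025950.15, chr1:65158616-65186500, minus strand) makes NADPH while turning isocitrate into 2-oxoglutarate. Its log2 FPKM was 2.94, 2.89 and 3.03 in bone marrow, 1.91, 1.29 and 1.72 in blood, and 2.45, 2.15 and 2.69 in tumor, with no overlap between compartments. It was 2.49-fold lower in blood than in bone marrow (log2 -1.31, SE 0.19, limma adjusted p = 0.00116) and 1.73-fold higher in tumor than in blood (log2 0.79, SE 0.19, limma adjusted p = 0.00722), which was called in all 23 alternatives. The fall from bone marrow to tumor (log2 -0.52, SE 0.19, limma adjusted p = 0.0492) was lost in 13 of 23, among them those without any 1 bone marrow library, without blood replicate 3, and without tumor replicate 1 or 2, with adjusted p from 0.0162 to 0.828.

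Its mitochondrial counterpart *Idh2* was also higher in tumor than in blood (log2 3.12, SE 0.36, limma adjusted p = 0.000176), although it was over the filter in 2 bone marrow and 3 tumor libraries, so that its tumor level helped it pass. The within-library difference *Idh2* minus *Idh1* came to -2.51 ± 0.41 (SD, n = 3) in bone marrow, against -3.16 ± 0.09 in blood and -0.83 ± 0.27 in tumor. Tumor was 2.33 above blood and 1.69 above bone marrow, without overlap (exact two-sided permutation p = 0.1, the smallest possible). From blood to tumor the tumor epithelium markers rose as well, from 21.6 to 148 RPM to 2798 to 5950 RPM, as did the fibroblast and acinar markers. The part of these cells in the rises was not tested.

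The mitochondrial malic enzyme *Me2* (ENSMUSG00000024556.3, chr18:73769903-73815449, minus strand) turns malate into pyruvate with NAD+ or NADP+. Its log2 FPKM was 1.24, 1.19 and 1.40 in bone marrow, -1.20, -0.80 and -0.53 in blood, and -0.14, -0.72 and -0.38 in tumor. It passed the filter through its bone marrow libraries alone, so that its lower level elsewhere was in part set by the filter. The log2 difference from bone marrow was -2.12 in blood and -1.69 in tumor (SE 0.24 each), and no p is given for these for that reason. Tumor and blood overlapped, with a log2 difference of 0.43 and a 95% interval of -0.13 to 0.99 (limma adjusted p = 0.152), which was called higher with plain library totals (log2 0.88).

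The cytosolic malic enzyme *Me1* (ENSMUSG00000032418.14, chr9:86581371-86695953, minus strand), an NADPH source in fat-making cells, was read almost wholly in tumor. It had 0, 0 and 0 reads in bone marrow, 0, 0 and 1 in blood, and 283, 380 and 638 in tumor. Its tumor log2 FPKM was -1.33, -1.19 and -0.51, which is under the filter, so *Me1* had no place in the main test, and with at least 5 reads in 1 library as the filter it passed through tumor alone. Set against a floor of 3 reads per bone marrow library, *Me1* was at least 123-fold higher in tumor (log2 6.94). Pooled over libraries, on the scaled library sizes, the ratio of tumor to blood was 852, with an exact 95% interval of 153 to 33694 that covers counting error only. The read counts describe it, and no p is given, since the filter and the floor at 0 reads fix the outcome of a test. *A330041J22Rik* overlaps it on the opposite strand, and *Gm38230* on the same strand.

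The tumor libraries in which *Me1* was read also held RNA of other cells. Its level was 52.0, 54.5 and 98.1 RPM in tumor libraries 1, 2 and 3, and the 10 tumor epithelium markers summed to 3708, 2798 and 5950 in the same libraries. Tumor library 3 was highest in both and also in acinar markers (2217 RPM, against 879 and 553). Between tumor libraries 1 and 2 the order differed, with *Me1* slightly higher in library 2 and the epithelium and acinar sums higher in library 1. The fibroblast markers summed to 1108, 1165 and 1363 RPM in tumor libraries 1, 2 and 3, the same order as *Me1*. Among the other sources of NADPH, *Aldh1l1* had 74, 81 and 141 reads in tumor against 1 to 20 elsewhere, and *Aldh1l2* had 41, 16 and 30 reads against 1 read in the other 6 libraries together. The part of tumor epithelium, acinar cells and fibroblasts in these values was not tested.

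**Figure D3:**
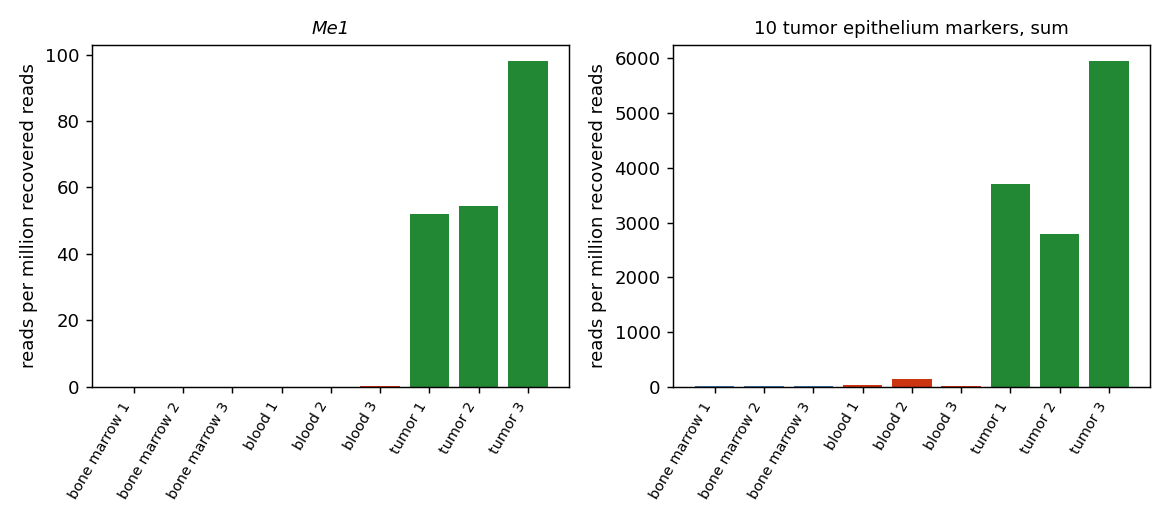
RPM (vertical axes, linear, from 0) of *Me1* and of the sum of 10 tumor epithelium markers, with 1 bar per library. Both are near 0 in bone marrow and blood and are highest in tumor library 3, at 98.1 for *Me1* and 5950 for the markers.

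Of the 10 enzymes, 8 passed the filter of log2 FPKM over 0 in at least 3 libraries and 2, *Rpia* and *Me1*, did not. In blood against bone marrow 7 of the 8 were called lower, where 23.6% of the 7794 genes tested were, and 1 was called higher, where 20.6% were. *Me2*, 1 of the 7, was tested through its bone marrow level alone. The median log2 fold change of the 8 was -1.35, against -0.04 over all genes tested. This fall went with that of the immature neutrophil markers given above, whose part in it was not tested.

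In tumor against blood 4 of the 8 were lower (*G6pdx*, *Pgd*, *Tkt* and *Taldo1*), where 34.5% of all genes were, and 2 were higher (*Idh1* and *Rpe*), where 28.1% were. The median of the 8 was -0.22, near the -0.17 of all genes. The neutrophil markers also summed to less in tumor than in blood, as given above, and their part in these falls was not tested. In tumor against bone marrow 8 were lower, where 32.9% of all genes were, and 0 were higher (0 also at an unadjusted p under 0.05 in limma, and 1, *Me1*, by limma-voom on recovered reads), where 22.4% were, with a median of -2.02 against -0.21. *G6pdx*, *Pgd*, *Tkt* and *Taldo1* were lower in tumor than in both other compartments, as 1849 of 7794 genes (23.7%) were. The 3 comparisons share libraries, and *Me2* is in these counts through its bone marrow level alone.

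With at least 5 reads in 1 library as the filter, all 10 enzymes were among 17714 genes. In that fit 8 were lower and 1 was higher in blood than in bone marrow (16.3% and 12.6% of all genes), 4 were lower and 2 higher in tumor than in blood (20.2% and 32.4%), and 8 were lower and 1 higher in tumor than in bone marrow (18.4% and 25.2%). The higher ones were *Taldo1* in the first comparison, *Idh1* and *Me1* in the second, and *Me1* in the third, and *Me1* is in these counts through its tumor level alone. The deposited values rest on scaled library sizes, and plain totals moved all genes up in tumor by 0.45 on the log2 scale against either other compartment. With plain totals the median in tumor against blood was 0.23 (0.34 over all genes), with 3 enzymes lower and 3 higher, and in tumor against bone marrow it was -1.57 (0.30 over all genes), with 6 lower.

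Levels of different genes were compared per exonic length, as reads per kilobase of merged exons divided by the plain total of each library (in RPM). *Taldo1* was the most abundant in each compartment, at 654 ± 55.2 (SD, n = 3) in bone marrow, against 998 ± 112 in blood and 173 ± 16.5 in tumor. In bone marrow *G6pdx* (435 ± 17.3) and *Tkt* (294 ± 9.79) came next, and *Pgd* (267 ± 18.0) overlapped *Tkt*. In blood *Pgd* (185 ± 1.13) stood above *G6pdx* (167 ± 4.44), and *Tkt* had dropped to 74.8 ± 6.60.

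In tumor the levels below *Taldo1* ran together. *Pgd* (72.0 ± 7.11), *Tkt* (69.3 ± 21.9), *G6pdx* (65.9 ± 15.5) and *Idh1* (63.6 ± 15.6) overlapped, and *Me1* (17.7 ± 6.74) and *Rpe* (16.8 ± 2.05) followed. The sum over the 10 enzymes was 1775 ± 91.6 in bone marrow, against 1467 ± 115 in blood and 491 ± 69.4 in tumor. *Taldo1* made up 36.8%, 67.9% and 35.6% of it, *G6pdx* 24.5%, 11.4% and 13.3%, and *Idh1* 3.71%, 1.84% and 12.8%. The order depends on the length used: with the lengths behind the deposited values *Pgd* would be placed 2 and *G6pdx* 4 in bone marrow.

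**Figure D4:**
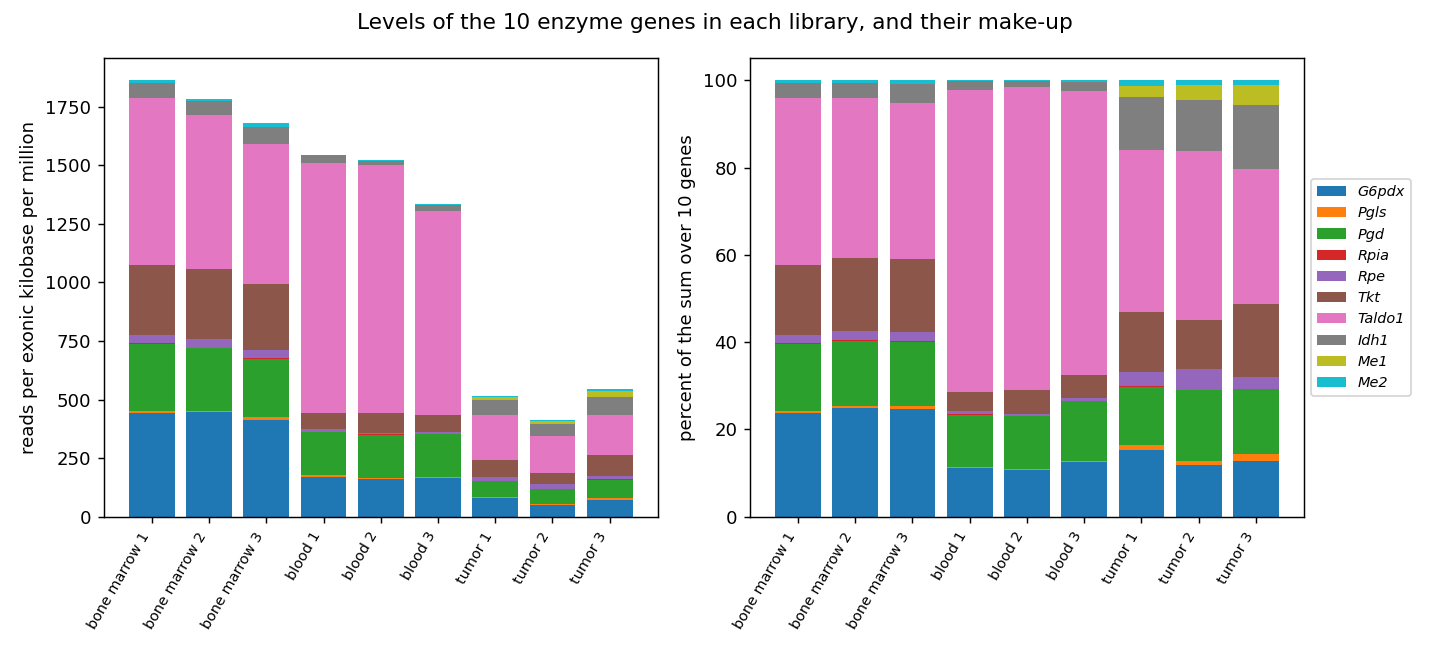
Levels of the 10 enzyme genes in each library as stacked bars, on the left in RPM per exonic kilobase and on the right as percent of their sum. The bars shrink from a mean of 1775 in bone marrow to 491 in tumor, *Taldo1* takes 67.9% in blood, and *Idh1* and *Me1* take 12.8% and 3.58% in tumor.

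Among the 7794 genes tested, each enzyme's 3 nearest patterns were named by Pearson's r over the 9 libraries, which fall into 3 compartments, so that r is high for any genes that share the order of compartments. *Retnlg* (0.998), itself in the list of neutrophil markers, *Arhgdib* and *Mmp25* lay nearest to *G6pdx*, and *Mocos* (0.999), *Rgs19* and *Ccnd3* nearest to *Pgd*. For *Taldo1* they were *Hcls1* (0.998), *Pigx* and *Naa60*, and for *Tkt* *Rab3d* (0.997), *Wdr5* and *Rin2*. For *Me2* they were *Mki67* (0.994), a marker of dividing cells, *Tcf19* and *Cdk2*, a kinase of the cell cycle. For *Rpe* they were *C3* (0.993), *Adgrg3* and *Hsd11b1*, for *Idh1* *Mogat2* (0.984), *Mlst8* and *Snrpb2*, and for *Pgls* *Ctsh* (0.974), *Ttc9c* and *Anxa7*.

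RefSeq promoter windows on GRCm38.p6, from 250 bases before to 50 after the start, were at hand for 9 of the 10 enzymes (12 windows). The letters TGACNNNGC, the core of the antioxidant response element through which NRF2 acts, were searched on both strands and stood in 12.4% of all 32851 windows. They were found in windows of *G6pdx*, *Pgd* (second start) and *Me1* (first start), and these 3 stretches are shown because they hold it. In each 30-base stretch, read 5′ to 3′ along the gene, the match is in capitals. In *G6pdx* it reads on the opposite strand.

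G6pdx, chrX:74428918-74428947, minus strand: aggcgggtcaGCTCAGTCAaagcacacgcc

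Pgd, chr4:149166060-149166089, minus strand: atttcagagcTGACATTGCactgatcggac

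Me1, chr9:86695901-86695930, minus strand: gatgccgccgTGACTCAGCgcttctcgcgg

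The hypoxia response core ACGTG stood in 19.6% of all windows and in those of *G6pdx* and *Me1* (second start). The E-box CACGTG, which contains ACGTG, stood in 7.15% of windows and in none of the enzymes'. The GC box GGGCGG, found in 35.7% of windows, stood in at least 1 window of each of the 9 enzymes. The windows at the second starts of *Pgd* and *Me1* held none, and the 35.7% is a share of windows and not of genes. Stretches before the start are shown for *Taldo1* and *Me1*, the enzyme that was highest in blood and the one that was read in tumor. GC boxes on either strand that lie wholly inside a stretch are in capitals. A further box of *Me1*, at -42 from its first start, is cut by the end of the stretch and is not marked. A match is a description of the letters and not of a bound site.

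Taldo1, chr7:141391910-141392159, plus strand: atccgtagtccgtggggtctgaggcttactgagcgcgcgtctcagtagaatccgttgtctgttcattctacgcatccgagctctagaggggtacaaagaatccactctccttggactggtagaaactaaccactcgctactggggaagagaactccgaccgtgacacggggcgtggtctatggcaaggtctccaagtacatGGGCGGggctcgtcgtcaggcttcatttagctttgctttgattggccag

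Me1, chr9:86695954-86696164, minus strand: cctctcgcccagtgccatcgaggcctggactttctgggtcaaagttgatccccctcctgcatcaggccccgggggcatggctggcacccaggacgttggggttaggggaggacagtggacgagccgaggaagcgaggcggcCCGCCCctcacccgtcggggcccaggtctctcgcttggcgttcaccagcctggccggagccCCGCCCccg

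Of 11 further pentose phosphate genes, 3 passed the filter: *H6pd*, the enzyme of the endoplasmic reticulum that carries out the first oxidative steps there, *Pgm2*, a phosphopentomutase, and *Prps1*, which makes phosphoribosyl pyrophosphate from ribose 5-phosphate. *H6pd* and *Prps1* fell from bone marrow to blood, and in tumor they were above blood by log2 1.63 (SE 0.40, limma adjusted p = 0.00761) and 1.17 (SE 0.24, adjusted p = 0.00359). *Prps1* was over the filter in 1 bone marrow and 3 tumor libraries, so its higher level in tumor was in part set by the filter. *Pgm2*, with 270, 214 and 331 reads in bone marrow, 69, 118 and 135 in blood, and 525, 774 and 837 in tumor, passed through its tumor libraries alone, so its higher level there is given as read counts with no test. Of the close relatives of the 10 enzymes, *G6pd2* had at most 14 reads in a library, *Tktl1* at most 16, *Me3* at most 3, and *Tktl2* was without reads.

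Of 12 other sources of NADPH or NADP+, 4 passed. NAD kinase (*Nadk*), which makes NADP+, was, like *Taldo1*, higher in blood than in bone marrow (log2 0.58, SE 0.10, limma adjusted p = 0.00262) and 6.12-fold lower in tumor than in blood (log2 -2.61, SE 0.10, limma adjusted p = 2.58e-06). *Idh2* and *Mthfd2*, a mitochondrial folate enzyme, fell from bone marrow to blood and rose from blood to tumor, *Mthfd2* by log2 2.04 (SE 0.42, limma adjusted p = 0.00323). *Glud1* was called in none of the 3 comparisons, with log2 differences of -0.63, 0.06 and -0.58 and adjusted p from 0.209 to 0.906. For these 4 and for the further pentose phosphate genes, the part of other cells in the tumor values was not tested. Neither was the part of the lower neutrophil marker sum in the fall of *Nadk*.

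Of 12 users of NADPH, 7 passed. In tumor against blood 3 were called higher (*Fasn*, *Nos2* and *Txnrd1*), where 28.1% of all genes tested were, and 2 lower (*Gsr* and *Por*), where 34.5% were. *Fasn* and *Nos2* passed the filter through their tumor libraries alone, so their calls were in part set by the filter and their values are a description. Fatty acid synthase (*Fasn*) had 37, 28 and 34 reads in bone marrow, 4, 13 and 8 in blood, and 242, 169 and 394 in tumor. Inducible nitric oxide synthase (*Nos2*) had 12, 8 and 10 reads in bone marrow, 15, 39 and 34 in blood, and 420, 672 and 468 in tumor. Glutathione reductase (*Gsr*) was 2.50-fold lower (log2 -1.32, SE 0.19, limma adjusted p = 0.000517), whereas thioredoxin reductase (*Txnrd1*) was 4.08-fold higher (log2 2.03, SE 0.29, limma adjusted p = 0.000519). *Cybb*, the catalytic subunit of the phagocyte oxidase, fell 16.5-fold from bone marrow to blood (log2 -4.04, SE 0.26, limma adjusted p = 2.78e-05). Its log2 difference between tumor and blood was 0.29, with a 95% interval of -0.30 to 0.89. Tumor epithelium, acinar and fibroblast markers were higher in the same tumor libraries, and their part in these rises was not tested.

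All 8 regulators passed. *Myc* was 19.2-fold higher in tumor than in blood (log2 4.26, SE 0.53, limma adjusted p = 0.00024). The size of this fold rests on few reads in blood (32, 21 and 7, against 456, 451 and 602 in tumor). *Nfe2l2*, which encodes NRF2, was higher in blood than in bone marrow (log2 0.94, SE 0.09, limma adjusted p = 0.000199), and its log2 difference between tumor and blood was -0.21 (95% interval -0.43 to 0.00). *Bach1*, a repressor at the same element, was 3.94-fold lower in tumor than in blood (log2 -1.98, SE 0.25, limma adjusted p = 0.000248). It was over the filter in bone marrow and blood alone, so its lower level in tumor was in part set by the filter. *Mafg*, a partner of NRF2 and BACH1, was 2.13-fold lower in tumor than in blood (log2 -1.09, SE 0.10, limma adjusted p = 4.55e-05). *Hif1a* rose from bone marrow to tumor (log2 1.05, SE 0.18, limma adjusted p = 0.00158), with 0.43 against blood (adjusted p = 0.0684). *Mafk* was higher in tumor than in blood by log2 0.50 (SE 0.12, limma adjusted p = 0.00798) and *Keap1*, which holds NRF2 down, by 1.43 (SE 0.29, limma adjusted p = 0.00323). As for the users of NADPH, the part of other cells in the higher tumor values of these regulators was not tested.

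**Figure D5:**
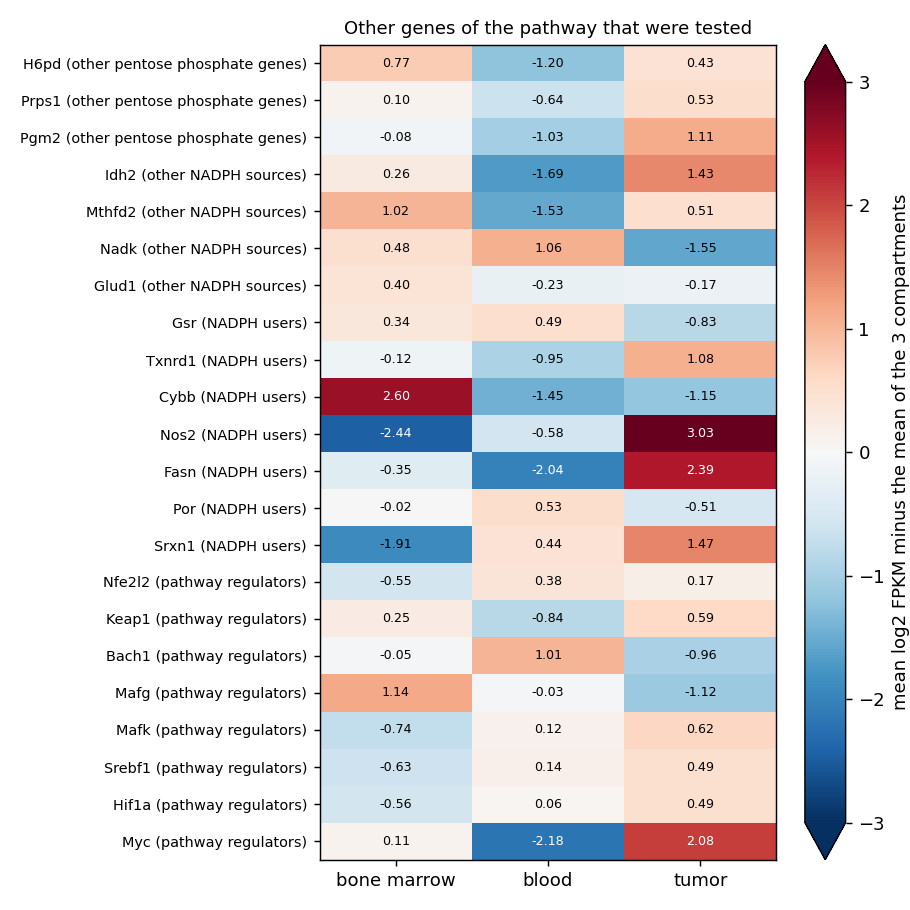
Mean log2 FPKM of 3 libraries per compartment, minus the mean of the 3 compartments, for the genes tested of the lists of other pentose phosphate genes, other NADPH sources, NADPH users and pathway regulators, on a color scale that ends at -3 and 3. *Nadk*, *Gsr*, *Por*, *Bach1* and *Mafg* are lowest in tumor, and *Idh2*, *Pgm2*, *Fasn*, *Nos2* and *Myc* are highest there.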

How the data were processed

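RNA of sorted neutrophils was sequenced in 9 libraries, 3 per compartment, from pools of mice collected in independent experiments, with cDNA made by SMARTSeq v2. Per the labels and the study's methods, the authors mapped paired-end reads to GRCm38 with STAR 2.5.2b and counted them per gene with featureCounts 1.5.0; strand use is not given in the sources used here. The authors then calculated and deposited log2 FPKM, to which a small constant had been added, so that genes without reads have a value. The values rest on scaled library sizes and, for 38873 of 46005 identifiers found in GENCODE M21 (84.5%), on the genomic span as gene length.

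From the deposited log2 values, whole reads were recovered for all 46517 genes (tolerance 1e-05), giving 4580807 to 7949367 per library. Counting error is the only error that read intervals cover, and p-values measure the spread between pools. The log2 FPKM values were fitted in R 4.3.3 by limma 3.58.1 (moderated by eBayes with a trend on intensity, 1 coefficient per compartment, Benjamini-Hochberg over the 7794 genes over 0 in at least 3 libraries, threshold 0.05). *Rpia* and *Me1*, under that filter, were fitted among 17714 genes with at least 5 reads in 1 library, a setting chosen for them after seeing the data. Within-library differences were tested by exact two-sided permutation with scipy 1.17.1. Promoter motifs and levels per merged exon of GENCODE M21 were described without a test. The procedure was tested on simulated data.

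The members, gene lists and markers were chosen with earlier results of these data known. 1 gene of the list of NADPH users is not reported here and was left out of its counts. Genes named are the 10 enzymes, members of the pathway lists and the 3 nearest patterns of each enzyme tested. The other marker lists, in RPM in bone marrow, blood and tumor, came to 383 to 395, 1258 to 1419 and 499 to 635 for macrophages, 13.8 to 19.1, 41.1 to 49.0 and 107 to 140 for endothelium, 31.8 to 61.0, 85.2 to 155 and 6.98 to 11.5 for lymphocytes, 26.8 to 56.7, 245 to 471 and 12.9 to 139 for red cells, and 75.0 to 110, 726 to 942 and 34.7 to 56.8 for platelets.

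Alternatives were other filters, pseudocounts of 1 and 0.1, quantile normalization, median centring, plain library totals, eBayes without trend or with robust estimation, limma-voom on recovered reads (with plain totals added after seeing the data), the replicate block, only the compartments compared, and each library left out.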

Additional observations from a re-analysis of the deposited data

How the results depend on the processing

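Of the 30 log2 fold changes of the 10 enzymes, 23 kept the same call in every alternative run, and none of the calls changed direction. The 23 include those of *Me1*, fixed by the filter and the floor at 0 reads, and those of *Me2* against bone marrow, in part set by the filter. Their steadiness is no sign of a firm result, and they also count among the values that follow. Over 624 values under alternatives, 575 kept their side of the threshold, 46 lost and 3 gained a call. The number of enzymes called higher in tumor than in blood, 2 in the report, was 1 with the stricter filter, with either pseudocount, with quantile normalization, median centring, eBayes without trend, the replicate block and only the 2 compartments compared, 4 with limma-voom on plain totals, and 1 to 2 with 1 library left out. What changed was mainly *Rpe*, as given in the report, and the cause was not tested. The number called higher in tumor than in bone marrow, 0 in the report, was 1 (*Me1*) with no filter, with the filter on reads and with limma-voom on either kind of totals, because these fits test *Me1*.

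The study describes the 3 compartments as taken from the same mice. Whether libraries with the same replicate number came from the same experiment is not given in the sources used here. Of 9 same-numbered pairs, 1 deviated together with a correlation over 0.1 (blood 1 with tumor 1, 0.108). The differently numbered blood 3 and tumor 2 did so too (0.106), so these correlations cannot decide the pairing, and the main fit used none. With the replicate block 4 enzymes in place of 6 were called in tumor against blood, *Rpe* and *Tkt* being lost, and *Rpia* was lost in tumor against bone marrow.

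The within-library difference *Pgd* minus *G6pdx* between tumor and blood, near 0, was -0.064 and -0.0016 with pseudocounts of 1 and 0.1, and -0.14 to 0.17 with 1 library left out. *Idh2* minus *Idh1* between blood and bone marrow turned to 0.27 with a pseudocount of 1. With the lengths behind the deposited values the place in bone marrow was 4 for *G6pdx*, 7 for *Pgls*, 2 for *Pgd* and 8 for *Me2*. The planned difference *Me2* minus *Me1* was not run, because *Me1* had no reads in 5 of 6 bone marrow and blood libraries. Depth limits *Rpia*, with 10 to 85 reads per library.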
